A study of Mus musculus with 20 samples.

Results

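Medium-content (MT) and high-content (HT) liver metastases of the mouse colorectal cancer line Mc38 were compared by bulk RNA-Sequencing. The members were all medium-content and all high-content tissue libraries of the series, which made 8 samples from 9 libraries among 20 samples and 14 tissue libraries in all. They comprised 6 MT samples (2 each of MT3, MT2 and MT1) and 2 HT samples, since the libraries HT_1 and HT_3 were summed to 1 sample. In HT, 257 of 17187 tested genes (1.5%) were higher and 2306 (13.4%) lower than in the mean of the 3 MT groups. The higher genes included macrophage genes (Cbr2, F13a1, Fcrls), matrix proteoglycans (Ogn, Aspn) and the receptor Aplnr. Lower genes outside the hepatocyte included the interleukin 1 genes Il1b and Il1a and the B cell genes Ighd and Blk. Markers of Kupffer cells, sinusoidal endothelium and stellate cells were among them too. Macrophage genes changed in both directions: of 18 tested tissue-resident-type macrophage markers, 6 were higher and 4 lower (33.3% and 22.2%).

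A liver metastasis is a mixture of tumor cells, host liver and recruited cells. As the tumor replaces the parenchyma, hepatocytes and the cells that line and support the sinusoid (sinusoidal endothelium, Kupffer cells and stellate cells) take a smaller share of a tissue piece, while tumor cells, fibroblasts and tumor-associated macrophages take a larger one. Kupffer cells are the resident macrophages of the liver and carry Clec4f and Timd4, tumor-associated macrophages arise mostly from monocytes, and fibroblasts lay down collagens and small proteoglycans. In bulk tissue, fewer cells of a type and less RNA per cell cannot be told apart.

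All mice were wild-type C57BL/6, with no transgene or targeted allele, and all MT and HT mice had received 1e+06 MC38 cells by splenic injection, from which the cells reach the liver through the portal vein. MT3 was taken at day 9, MT2 and MT1 at day 11 and HT at day 12, so day and tumor content cannot be told apart between MT and HT. Each sample was an aliquot of a tumor-centric tissue piece that included surrounding liver, taken from a separate liver for each replicate. Samples outside the comparison served for reference. They were control livers without tumor cells (C, normal saline, n = 2) and 1 tumor-free piece from a tumor-bearing liver at day 12 (FC). Low-content metastases of day 9 (LT, n = 2) were used too. So were cells sorted from medium-content metastases by F4/80 or CD11b microbeads (3 libraries each, counted in a table of their own). The line Mc38 is 1 model of colorectal cancer and grows in an immunocompetent host, so tumor and host transcripts come from the same species and were counted together. The labels give male and the Methods female mice; in the 9 MT and HT libraries Xist had 0 to 3 counts and Ddx3y 348 to 1421 counts.

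The 9 libraries held 16032085 to 18246623 counts, at which 3 counts correspond to 0.164 to 0.187 CPM (counts scaled to a common library size, here without TMM). HT_1 and HT_3, described in the Methods as made identical, differed by 27.63 in chi-square per degree of freedom, as much as HT_1 and HT_2 (26.67), while HT_2 and HT_3 differed by 12.14; the sum of HT_1 and HT_3 was used all the same. Hepatocyte markers checked the order of the groups: the mean log2(CPM + 1) of 20 markers, Alb and Apoa1 among them, ran from 9.16 to 11.5 in MT and was 6.49 and 6.97 in the HT samples. MT2_2 and MT1_2 (9.38 and 9.16) stood below the other 4 MT samples (10.8 to 11.5). p-values rest on the spread between replicates of all tissue groups in the fit, C and LT included, and not on MT and HT alone. Intervals and floors cover counting error only.

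Genes were scaled by TMM (trimmed mean of M-values, which sets the bulk of genes level between samples) and tested by edgeR's quasi-likelihood test; a gene was called where its Benjamini-Hochberg adjusted p did not exceed 0.05 and its log2 fold change was 1 or more in size. Of the 257 higher genes, 244 had both HT samples above all 6 MT samples, against 18.7% of all tested genes, and of the 2306 lower genes 2266 had both below, against 22.6%. At an unadjusted p under 0.05, 2841 genes were higher and 4141 lower. Liver-low genes, whose mean CPM was lower in C and in FC than in LT (7980 of the tested genes, a split that used no MT or HT library), gave 238 of the higher calls (2.98% of them) and 146 of the lower (1.83%). The other 9207 genes gave 19 higher (0.206%) and 2160 lower (23.5%). By the libraries outside the comparison, 129 of the 257 higher genes were more abundant in the sorted cells than in tumor-free liver, 75 were similar, 47 low in both and 6 more abundant in liver; of the lower genes, 2117 were more abundant in liver.

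The count of higher genes rested on the scaling and on the HT pair. Total-count scaling, which moved the median log2 fold change of all genes from 0.00 to 0.55, gave 2587 higher and 1773 lower genes (59.3% of calls higher instead of 10%), and TMM computed on liver-low genes alone, which moved it to -0.37, gave 33 higher and 2916 lower. Of 68 higher genes followed through the alternatives, TMM on liver-low genes kept 23 calls and ended the other 45. Those kept were Cbr2, F13a1, Fcrls, Nxpe5, Ogn, Aspn, Fbln5, Igfbp6, Col4a5, Aplnr, Apela, Gzmc, Gzmd, Gzmf, Efna4, Msln, Trp63, Tent5b, Itgbl1, Sorcs2, Gm1673, Mgat3 and Metrn. Of 91 lower genes so followed, total-count scaling ended 24 calls, those of Il1rn, Il1r1, Cxcl1, Ms4a1, Fcrla, Spib, Ppbp, Ear2, Alox15, Klk1, Mks1, 5830444B04Rik, AW112010, Icos, Kdr, Tek, Plvap, Lrat, Tmem37, Hhip, Efna1, Col23a1, Plin2 and Lipa. Without either HT sample (the sum of HT_1 and HT_3, or HT_2) edgeR called 0 genes, with a smallest adjusted p of 0.139 and 0.0845. At an unadjusted p under 0.05, 1078 genes were then higher and 2682 lower without the first and 1154 and 2920 without the second, and DESeq2 called 58 higher and 1723 lower, and 76 and 2111. This holds for each call below. With HT_1 and HT_3 kept as separate samples 461 genes were higher and 2650 lower, and with HT_3 not used 223 and 2253. With MT fitted as 1 group of 6 samples they numbered 30 and 1908. That last fit ended the calls of Aplnr, Fcrls, Nxpe5, Tent5b, Igfbp6, Col4a5 and Msln among others. It kept those of Cbr2, F13a1, Ogn and Aspn. Leaving out 1 MT sample gave 87 (without MT1_1) to 810 (without MT2_2) higher genes and 1769 (without MT3_1) to 2739 (without MT2_2) lower genes; without MT3_1, MT3_2, MT2_1 and MT1_2 the higher genes numbered 89, 159, 152 and 403.

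**Figure D1:**
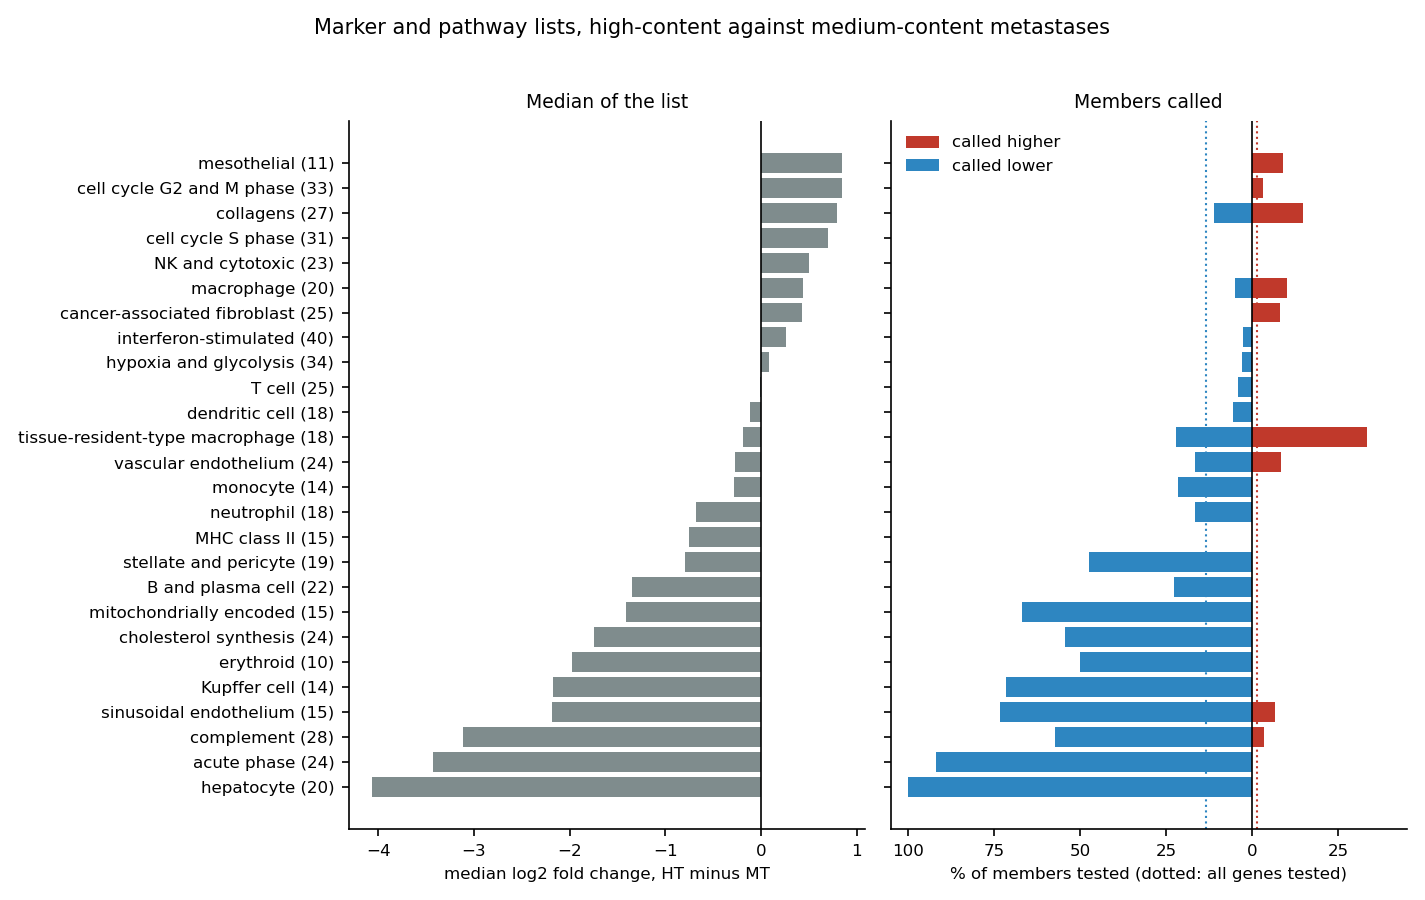
Marker and pathway lists in HT against MT. Left, median log2 fold change of each list's tested members (number in brackets); right, percent of members called higher (red, to the right) or lower (blue, to the left), with dotted lines at the share of all genes tested, 1.5% higher and 13.4% lower. Hepatocyte, acute phase and complement lists lie lowest (medians -4.06, -3.42 and -3.11). The tissue-resident-type macrophage list has members called in both directions (6 higher, 4 lower of 18).

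The higher genes with the largest changes included genes of macrophages. Cbr2, a carbonyl reductase used as a marker of tissue-resident-type macrophages, had 0.815, 4.16 and 6.83 CPM (lowest, median and highest) in the 6 MT samples and 29.3 and 19.1 CPM in the 2 HT samples. Both HT samples lay well above every MT sample. The log2 fold change was 2.90 (SE 0.38, adjusted p = 0.00861, edgeR's quasi-likelihood test). F13a1, the catalytic subunit of coagulation factor XIII that monocytes and macrophages also make, had 12.6, 18.6 and 52.3 CPM in MT and 95.3 and 93.6 CPM in HT. The HT samples were nearly equal and above all MT samples, of which MT1_1 was the nearest (log2 fold change 2.13, SE 0.20, adjusted p = 0.00861). F13a1 was also the only gene called higher against MT1 alone (1.23, adjusted p = 0.0462), where 1 of 17187 genes (0.00582%) was called. That call against MT1 ended without MT3_1 or MT3_2, with only MT and HT in the fit and with TMM on liver-low genes. Fcrls, an Fc receptor-like scavenger receptor, had 4.76, 28.1 and 41.1 CPM in MT and 104.7 and 82.6 CPM in HT. The groups did not overlap (2.11, SE 0.34, adjusted p = 0.00865). Stab1, the scavenger receptor stabilin-1, had 108.5, 180 and 266.3 CPM in MT and 378.9 and 387.3 CPM in HT, again without overlap (1.15, SE 0.17, adjusted p = 0.00861). In the sorted cells these 4 genes averaged 52.7, 388.1, 273.6 and 2234 CPM (F4/80+) and 54.8, 424.3, 346.9 and 1955 CPM (CD11b+), against 0.0827, 0.301, 0.0414 and 117.1 CPM in C. Stab1 did not pass the fold threshold with TMM on liver-low genes (0.78), whereas Cbr2, F13a1 and Fcrls were still called. With MT as 1 group the call of Fcrls ended (1.86, adjusted p = 0.0551), and against MT2 alone Fcrls was not called (1.65, adjusted p = 0.069).

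In the list of tissue-resident-type macrophages, 6 of 18 tested members were higher (Cbr2, F13a1, Fcrls, Stab1, Pf4 and Ltc4s) and 4 lower (Ccl24, Selenop, Igf1 and Tmem37), 33.3% and 22.2% against 1.5% and 13.4% of all genes, with a median log2 fold change of -0.19. Of the lower members, Selenop (selenoprotein P) and Igf1 (insulin-like growth factor 1) are also made by hepatocytes and stood at 6367 and 763 CPM in C. Ccl24, an eosinophil-attracting chemokine, had 4.42, 7.60 and 12.6 CPM in MT and 1.77 and 2.05 CPM in HT (-2.03, SE 0.44, adjusted p = 0.0158). Pf4, the chemokine platelet factor 4, had 5.76, 9.42 and 24.1 CPM in MT and 29.1 and 24.3 CPM in HT (1.26, SE 0.31, adjusted p = 0.0238). Its margin was narrow, since HT_2 exceeded the highest MT sample by little, and the call ended without MT3_2 (adjusted p = 0.0519). The call of Tmem37 ended without MT3_1, MT3_2, MT2_1 or MT1_1 (adjusted p up to 0.0814) and with total-count scaling (-0.84). With TMM on liver-low genes 3 members were higher and 4 lower, and with total-count scaling 6 and 3.

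In the broad macrophage list 2 of 20 tested members were higher (Trem2 and Ms4a7; 10%, against 1.5% of all genes) and 1 lower (Arg1), 17 were positive, and 7 had both HT samples above all MT samples (18.7% of all genes did). The median of 0.44 was 0.08 with TMM on liver-low genes (0 higher, 1 lower) and 0.96 with total-count scaling (8 higher, 1 lower). Trem2, a lipid-sensing receptor of tumor-associated macrophages, had 9.24, 16.8 and 26.6 CPM in MT and 41.0 and 37.4 CPM in HT (1.25, SE 0.31, adjusted p = 0.0231). The HT samples lay above all MT samples. Adgre1, which encodes F4/80, had 72.4, 105 and 132 CPM in MT and 118 and 143 CPM in HT, with overlapping groups (0.35, SE 0.23, adjusted p = 0.275), and Csf1r, the receptor of macrophage colony-stimulating factor, likewise overlapped (0.25, SE 0.23, adjusted p = 0.425). Arg1 is a urea cycle enzyme of hepatocytes as well as a macrophage gene and stood at 3034 CPM in C. Among receptors outside that list, Cd33, a sialic acid-binding lectin, had 8.02, 13.97 and 20.0 CPM in MT and 26.0 and 32.3 CPM in HT (1.12, adjusted p = 0.0175), and C5ar1, the receptor of the complement fragment C5a, had 10.0, 19.7 and 32.5 CPM in MT and 37.5 and 45.3 CPM in HT (1.13, adjusted p = 0.0152). Ms4a7 overlapped between the groups (1.07, adjusted p = 0.0469). The call of Trem2 ended without MT3_1 or MT1_1 (adjusted p up to 0.058), and that of Ms4a7 without MT3_2, MT2_1 or MT1_1 (up to 0.0916). With TMM on liver-low genes Trem2, Cd33, C5ar1 and Ms4a7 were not called (0.90, 0.76, 0.78 and 0.72).

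Trem2 was the only higher member of the list of lipid-associated macrophages, in which 6 of 16 tested members were lower (37.5%, against 13.4% of all genes), with a median of -0.56; with total-count scaling 4 were lower and 1 higher (median -0.01). The lower members handle lipid: Fabp5, a fatty acid-binding protein (-2.98, adjusted p = 0.00861), Lpl, lipoprotein lipase (-1.82, adjusted p = 0.0228), Cd36, a fatty acid receptor (-1.82, adjusted p = 0.0125), Apoe, apolipoprotein E (-2.09, adjusted p = 0.0455), Plin2, a lipid droplet coat protein (-1.34, adjusted p = 0.036), and Lipa, the lysosomal acid lipase (-1.11, adjusted p = 0.0354). In all 6, HT lay below every MT sample. They were also abundant in tumor-free liver, as Apoe at 24955 CPM in C and 14201 CPM in F4/80+ cells and Fabp5 at 69.1 and 14.5 CPM show. The calls of Apoe, Plin2 and Lipa ended without MT3_1 or MT1_1, Apoe also without MT3_2 and Plin2 and Lipa without MT2_1 (adjusted p up to 0.0905), and that of Apoe also with TMM on liver-low genes (adjusted p = 0.0595).

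Of 10 tested enzymes of eicosanoid synthesis, a set gathered after values were seen, 3 were higher (30%, against 1.5% of all genes) and 1, Alox15, was lower, with a median of 0.22. Alox5 and Ltc4s carry out early and late steps of leukotriene synthesis, and Hpgds makes prostaglandin D. Ltc4s had 0.559, 0.868 and 1.07 CPM in MT and 3.39 and 1.53 CPM in HT. Its HT samples lay above all MT samples but differed from each other by more than the MT range (1.61, SE 0.43, adjusted p = 0.0307), and without the sum of HT_1 and HT_3 the log2 fold change was 0.92. Hpgds (1.17, adjusted p = 0.0282) and Alox5 (1.64, adjusted p = 0.0405) were also higher, without overlap. In the sorted cells Hpgds averaged 59.9 CPM (F4/80+) and 43.6 CPM (CD11b+). The calls of Hpgds and Ltc4s ended without MT3_1, MT3_2 or MT1_1 (adjusted p up to 0.0635 and 0.0627), and that of Alox5 without any MT sample but MT2_2 (up to 0.0822). With TMM on liver-low genes none of the 3 was called (Alox5 1.29, adjusted p = 0.0681; Ltc4s 1.23, adjusted p = 0.0873; Hpgds 0.82).

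**Figure D2:**
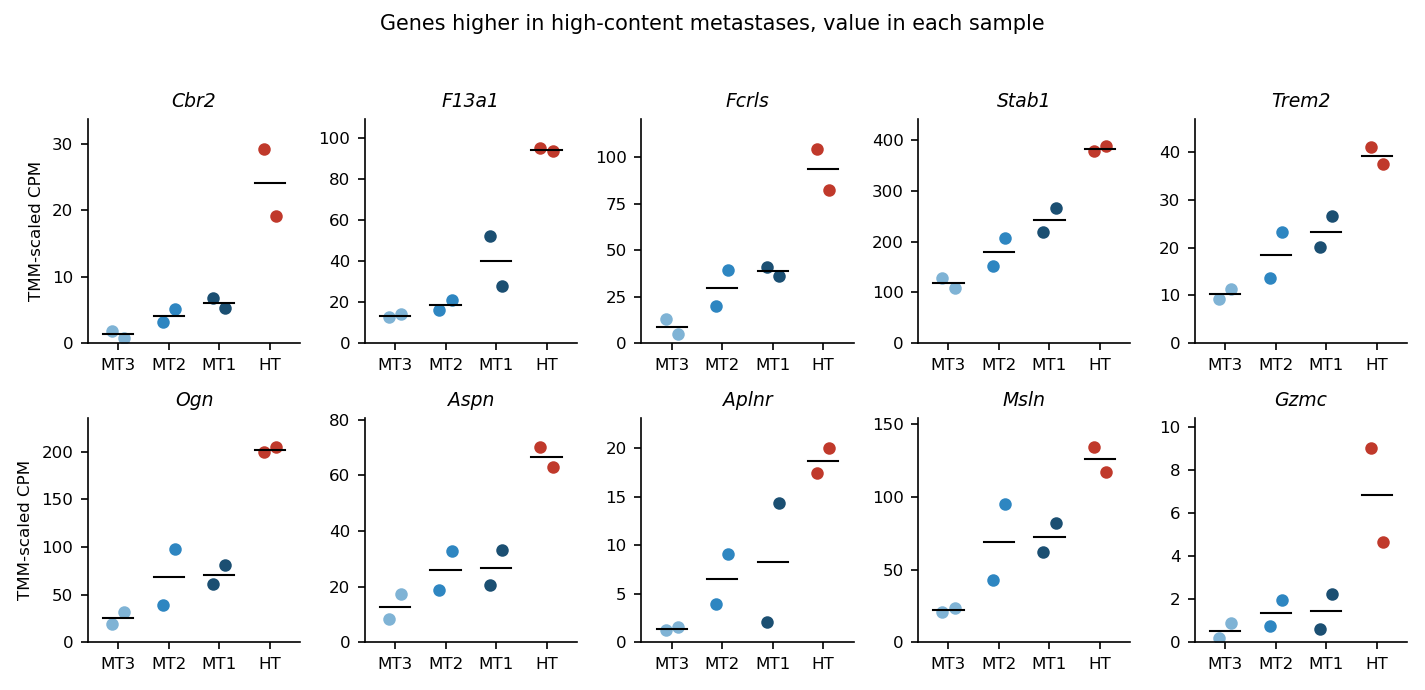
TMM-scaled CPM of 10 genes higher in HT, 1 point per sample and a line at each group's mean, in MT3, MT2, MT1 and HT (n = 2 each; axes start at 0). The HT points lie above all MT points in every panel, and F13a1 (95.3 and 93.6 CPM) and Ogn (199.5 and 204.4 CPM) show nearly equal HT samples.

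Small leucine-rich proteoglycans, which coat and space collagen fibrils, had 4 of 13 tested members higher (30.8%, against 1.5% of all genes) and 0 lower, in a set gathered after values were seen (median 0.73). Ogn (osteoglycin), Aspn (asporin) and Omd (osteomodulin) lie side by side on chromosome 13, from 49544443 to 49624501 (GRCm38, plus strand), and all 3 were called higher. The 250 bases before their annotated starts are shown because the 3 neighbours were higher together; capitals mark the letters TATAAA on either strand.
Ogn, chr13:49607765-49608014, plus strand: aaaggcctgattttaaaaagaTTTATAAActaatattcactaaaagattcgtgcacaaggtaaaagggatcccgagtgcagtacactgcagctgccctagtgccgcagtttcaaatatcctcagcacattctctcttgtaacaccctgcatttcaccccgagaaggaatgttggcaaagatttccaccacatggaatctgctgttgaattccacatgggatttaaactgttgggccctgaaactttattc
Omd, chr13:49582212-49582461, plus strand: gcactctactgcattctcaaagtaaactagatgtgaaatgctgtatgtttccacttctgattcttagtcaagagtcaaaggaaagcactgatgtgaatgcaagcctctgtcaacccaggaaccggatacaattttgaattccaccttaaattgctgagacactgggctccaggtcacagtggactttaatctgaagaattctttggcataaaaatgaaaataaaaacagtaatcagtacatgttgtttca
Aspn, chr13:49544193-49544442, plus strand: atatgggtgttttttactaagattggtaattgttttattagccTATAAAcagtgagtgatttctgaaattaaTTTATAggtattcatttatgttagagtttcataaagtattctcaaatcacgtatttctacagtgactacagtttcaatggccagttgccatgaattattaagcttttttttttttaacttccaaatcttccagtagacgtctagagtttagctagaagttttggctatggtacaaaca
The windows come from RefSeq (GRCm38.p6), in which all 8 genes sought here matched. TATAAA was found in Ogn on both strands, overlapping (bases 229 to 222 before the start), and in Aspn on the plus strand (207 to 202) and on the opposite strand (178 to 173), none of them near the start, and not in Omd. It occurred in 12.3% of 32536 such windows. Aligned over 266 columns, the Ogn and Aspn windows shared 50.8% of letters.

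Ogn had 19.7, 49.9 and 98.3 CPM in MT and 199.5 and 204.4 CPM in HT, with both HT samples far above the highest MT sample. Its log2 fold change was 2.01 (SE 0.39, adjusted p = 0.0113, edgeR's quasi-likelihood test). Aspn had 8.23, 19.7 and 33.2 CPM in MT and 70.1 and 63.1 CPM in HT, without overlap (1.68, SE 0.33, adjusted p = 0.0115). Omd had 2.95, 5.97 and 6.82 CPM in MT and 11.1 and 12.9 CPM in HT, also without overlap (1.14, SE 0.27, adjusted p = 0.0202). Podnl1 (podocan-like 1) was the fourth (1.12, SE 0.31, adjusted p = 0.0328), without overlap, and its call ended without MT3_1, MT3_2 or MT1_1 (adjusted p up to 0.0711). Ecm2, a related matrix gene, gave 0.98 (SE 0.30) and did not reach the fold threshold. Other members were not called. Bgn (biglycan) gave 0.73 (SE 0.28, adjusted p = 0.0824), Dcn (decorin) had 292, 330 and 387 CPM in MT and 359 and 334 CPM in HT (0.07, SE 0.18, adjusted p = 0.806), and Lum (lumican) had 54.3, 62.4 and 103 CPM in MT and 99.4 and 91.3 CPM in HT (0.40, SE 0.23, adjusted p = 0.219). Dcn and Lum overlapped between the groups. In the sorted cells Ogn averaged 3.69 CPM (F4/80+) and 1.94 CPM (CD11b+). Ogn and Aspn were still called with TMM on liver-low genes, and Omd and Podnl1 were not (0.78 and 0.77).

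Collagen genes were higher in part. Of 27 tested, 4 were higher (Col4a5, Col6a1, Col6a2 and Col7a1) and 3 lower (Col13a1, Col23a1 and Col27a1), which was 14.8% and 11.1%, against 1.5% and 13.4% of all genes, with a median log2 fold change of 0.80. With TMM on liver-low genes 1 was higher and 4 lower (median 0.45), and with total-count scaling 13 and 2 (median 1.31). Col4a5, a basement membrane chain, had 34.0, 67.0 and 94.2 CPM in MT and 167.7 and 166.3 CPM in HT (1.46, SE 0.31, adjusted p = 0.0146). Col6a1, a chain of the beaded filaments of collagen VI, had 437.3, 846.1 and 1370 CPM in MT and 1938 and 1737 CPM in HT (1.18, SE 0.33, adjusted p = 0.0354). Col6a1 and Col6a2 (1.16, adjusted p = 0.0333) did not overlap between the groups, and Col7a1, the anchoring fibril collagen, did (1.16, adjusted p = 0.043). The fibrillar collagens Col1a1 (0.79, SE 0.45, adjusted p = 0.211) and Col3a1 (0.93, SE 0.41, adjusted p = 0.124) were not called. The calls of Col6a1, Col6a2 and Col7a1 ended without MT3_1, MT3_2 or MT1_1 (adjusted p up to 0.0875), and that of Col23a1 without any MT sample but MT2_2 (up to 0.0807) and with total-count scaling.

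Other secreted matrix genes were higher by name rather than as a class. Fbln5 (fibulin-5), which organizes elastic fibers, had 26.0, 45.2 and 71.7 CPM in MT and 121.9 and 122.8 CPM in HT (1.46, SE 0.24, adjusted p = 0.00861). The HT samples were almost equal and above all MT samples. Igfbp6, a binding protein of insulin-like growth factor 2, had 15.2, 38.4 and 67.6 CPM in MT and 105 and 88.1 CPM in HT (1.47, SE 0.30, adjusted p = 0.0131). Of 25 tested markers of cancer-associated fibroblasts, 2 were higher (Fap and Pdgfra; 8%, against 1.5% of all genes), 0 lower, and 20 had a positive log2 fold change (median 0.42). The median was 0.09 with TMM on liver-low genes, with 0 called, and 0.91 with total-count scaling, with 8 higher. Fap, the fibroblast activation protein, had 2.54, 6.02 and 10.8 CPM in MT and 17.5 and 13.5 CPM in HT (1.32, SE 0.39, adjusted p = 0.0413), and Pdgfra, a receptor of platelet-derived growth factor, had 58.8, 95.4 and 147 CPM in MT and 203 and 200 CPM in HT (1.07, SE 0.28, adjusted p = 0.0269). Both ended as calls without MT3_1, MT2_1 or MT1_1 (adjusted p up to 0.0882 and 0.0636). Acta2 (smooth muscle actin) and Postn (periostin), common fibroblast markers, overlapped between the groups (0.45 and 0.18, adjusted p = 0.492 and 0.719).

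Transcription factors of mesenchyme were gathered after values were seen. Of 10 (Twist, Prrx, Osr and related genes), 7 were higher (70%, against 1.5% of all genes): Twist1, Prrx2, Osr1, Osr2, Tbx18, Foxc1 and Hic1, with log2 fold changes of 1.02 to 1.18. Osr1 had 4.45, 9.29 and 10.9 CPM in MT and 18.0 and 17.4 CPM in HT, which were above all MT samples by a clear margin (1.18, SE 0.16, adjusted p = 0.00861). Hic1, a repressor of quiescent mesenchymal progenitors, had 51.9, 94.0 and 150.3 CPM in MT and 210.6 and 200.2 CPM in HT (1.18, SE 0.30, adjusted p = 0.0258). Prrx1, a close relative of Prrx2, was not called (0.85, adjusted p = 0.0843). Osr1 kept its call without each MT sample, whereas the other 6 lost it without MT3_1, MT3_2 or MT1_1, and all but Hic1 also without MT2_1. With TMM on liver-low genes none of the 7 reached the fold threshold (0.66 to 0.83; Osr1 0.81).

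The Hedgehog, Tead, Wnt, Frizzled, ephrin and Eph receptor sets of this paragraph were gathered after values were seen. Among Hedgehog pathway genes, 4 of 13 tested were higher and 1 lower (30.8% and 7.69%, against 1.5% and 13.4% of all genes). The transducer Smo had 56.8, 82.1 and 117 CPM in MT and 160 and 171 CPM in HT (1.01, SE 0.23, adjusted p = 0.0182). The transcription factor Gli3 (1.08, adjusted p = 0.0257) and the ligand-binding coreceptors Gas1 (1.22, adjusted p = 0.0159) and Cdon (1.05, adjusted p = 0.0204) were higher too, while Hhip, a decoy of the ligand, was lower (-1.91, adjusted p = 0.0473). The pathway's target genes Ptch1 (-0.40, adjusted p = 0.0863) and Gli1 (0.79, adjusted p = 0.189) were not called. Tead2 and Tead4, DNA-binding partners of YAP and TAZ, were higher (1.17 and 1.18, adjusted p = 0.0228 and 0.0213), as 2 of 4 Tead genes (50%, against 1.5%). Of 12 tested Wnt ligands, 3 were higher (Wnt7b, Wnt6 and Wnt10b) and 2 lower (Wnt2 and Wnt5b), which was 25% and 16.7%, against 1.5% and 13.4% of all genes. Wnt7b had 16.1, 39.9 and 56.1 CPM in MT and 72.8 and 73.9 CPM in HT (1.11, SE 0.24, adjusted p = 0.0145). Frizzled genes had 1 of 8 tested higher and 2 lower (12.5% and 25%, against 1.5% and 13.4% of all genes). Eph receptors had 2 of 10 tested higher and 1 lower (20% and 10%). Of 8 tested ephrin ligands, which guide cells by contact, 3 were higher (37.5%, against 1.5% of all genes; Efna2, Efna4 and Efna5, 1.06 to 1.40) and 1 lower (12.5%, near the 13.4% of all genes; Efna1, -1.47, adjusted p = 0.0228); Efna1 stood at 42.8 CPM in C and was not called with total-count scaling (-0.86). Without MT3_1 and without MT1_1 the calls of Gli3, Hhip, Tead2, Wnt2, Wnt10b, Efna2, Efna4 and Efna5 ended, some of them also without MT3_2 or MT2_1, Tead4 ended without MT3_1 only, and Smo and Cdon ended without MT2_1 or MT1_1. Of Smo, Gli3, Gas1, Cdon, Tead2, Tead4, Wnt7b, Efna2, Efna4 and Efna5, TMM on liver-low genes left Efna4 as the only call.

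Apelin signaling acts in sprouting vessels, where the receptor Aplnr binds the ligands Apln and Apela. All 3 genes, a set gathered after values were seen, were higher, against 1.5% of all genes. Aplnr had 1.27, 3.06 and 14.3 CPM in MT and 17.4 and 20.0 CPM in HT. The MT samples spread widely, and MT1_2 came close to HT (2.13, SE 0.54, adjusted p = 0.0291). With the HT libraries kept apart, HT_1 (14.8 CPM) did not exceed all MT samples. The call ended without MT3_1 or MT3_2 (adjusted p up to 0.0716). It also ended with only MT and HT in the fit (0.0508), with MT as 1 group (0.133) and with day 11 only (0.221). Apln had 9.52, 19.1 and 35.9 CPM in MT and 43.0 and 42.3 CPM in HT (1.11, SE 0.31, adjusted p = 0.0325), without overlap, and lost its call without MT3_1, MT3_2, MT2_1 or MT1_1 (up to 0.0687). Apela was near the floor, with 0, 0.096 and 0.525 CPM in MT and 0.876 and 1.01 CPM in HT (2.93, SE 0.68, adjusted p = 0.0213). Its fitted change depends on the prior count.

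The calls of other vessel genes rested on the scaling. Of 24 tested markers of vascular endothelium, 2 were higher (Apln and Aplnr) and 4 lower (Tek, Plvap, Kdr and Ptprb; 16.7%, near the 13.4% of all genes), with a median of -0.27. With total-count scaling 4 were higher and 1 lower (median 0.30), and Kdr (-0.64), Tek (-0.88) and Plvap (-0.42) were not called. The call of Plvap also ended with DESeq2 (-0.94), with no filter, with at least 10 counts in every library, with a replicate block and without MT3_1, MT3_2, MT2_1 or MT1_1. Kdr, the main receptor of vascular endothelial growth factor, had 32.8, 53.1 and 91.6 CPM in MT and 24.1 and 24.2 CPM in HT (-1.23, SE 0.29, adjusted p = 0.0194); without MT2_1 the change was -0.97. Kdr stood at 89.0 CPM in C. Cdh5, the endothelial cadherin, overlapped (-0.24, SE 0.16, adjusted p = 0.273), and Pecam1 gave -0.35 (SE 0.18, adjusted p = 0.171). Of 34 tested angiogenic ligands and receptors, 3 were higher (Angpt1, Apln and Aplnr) and 7 lower (8.82% and 20.6%, against 1.5% and 13.4% of all genes), with a median of 0.07. That balance turned with the scaling, to 10 higher and 1 lower with total-count scaling (median 0.62) and 1 higher and 9 lower with TMM on liver-low genes (-0.31). Angpt1, the activating ligand of the receptor Tek, gave 1.01 (SE 0.29, adjusted p = 0.0377), and Tek -1.48 (SE 0.34, adjusted p = 0.0182). Vegfa, the ligand of Kdr, did not reach the fold threshold (-0.75, SE 0.18, adjusted p = 0.0207). Angpt1 lost its call without MT3_1, MT3_2, MT2_1 or MT1_1 (adjusted p up to 0.0811).

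Granzymes, serine proteases of cytotoxic granules, were a set chosen after values were seen. Of the 8 tested, 4 were higher, but Gzmd, Gzme and Gzmf reached the test only through their HT counts, so their number is a description. Gzmc had 0.201, 0.811 and 2.25 CPM in MT and 9.01 and 4.67 CPM in HT. The HT samples differed from each other, and both lay above every MT sample (2.72, SE 0.64, adjusted p = 0.0228). Gzmd, Gzme and Gzmf had 2, 2 and 3 counts in all 6 MT libraries together and 57, 42 and 38 counts in the 3 HT libraries, of which the sum of HT_1 and HT_3 held 51, 36 and 30. Relative to library totals the HT to MT ratios were 56.8, 41.8 and 25.2 (exact 95% intervals for counting error 15 to 480, 10.9 to 357 and 8.01 to 128), values that describe these libraries. The 4 genes lie together on chromosome 14, from 56117626 to 56234656 (GRCm38, minus strand). The windows of 250 bases before the starts of the 3 rarest are shown because these genes were higher together and Gzmd and Gzme are alike.
Gzmd, chr14:56132594-56132843, minus strand: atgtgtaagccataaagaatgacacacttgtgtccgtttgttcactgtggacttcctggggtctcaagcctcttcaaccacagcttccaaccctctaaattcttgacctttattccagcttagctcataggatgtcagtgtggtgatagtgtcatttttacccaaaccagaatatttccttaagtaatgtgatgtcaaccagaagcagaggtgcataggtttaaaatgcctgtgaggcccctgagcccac
Gzme, chr14:56120626-56120875, minus strand: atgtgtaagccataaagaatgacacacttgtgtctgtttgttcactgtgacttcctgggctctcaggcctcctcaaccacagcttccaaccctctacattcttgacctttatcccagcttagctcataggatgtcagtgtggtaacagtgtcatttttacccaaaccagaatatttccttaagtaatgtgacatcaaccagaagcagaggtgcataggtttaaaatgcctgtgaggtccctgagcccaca
Gzmf, chr14:56211408-56211657, minus strand: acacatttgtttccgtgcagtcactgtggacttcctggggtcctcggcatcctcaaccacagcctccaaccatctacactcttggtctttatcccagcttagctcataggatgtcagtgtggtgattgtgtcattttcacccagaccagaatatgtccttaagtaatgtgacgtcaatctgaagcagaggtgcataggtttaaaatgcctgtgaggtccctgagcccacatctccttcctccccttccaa
The Gzmd and Gzme windows shared 94.8% of 251 aligned columns, and Gzmf shared 75% and 75.7% with them. None held TATAAA on either strand. Granzymes of this cluster are related in sequence and the counting could split their reads, so single counts are uncertain.

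The common granzymes and other cytotoxic genes did not pass. Gzmb had 5.40, 8.27 and 12.7 CPM in MT and 10.5 and 12.2 CPM in HT (0.44, SE 0.63, adjusted p = 0.621), and Gzma overlapped as well (0.50, SE 0.91, adjusted p = 0.704). Prf1, the pore-forming perforin, had 1.68, 2.66 and 3.63 CPM in MT and 5.24 and 6.58 CPM in HT, without overlap but without a call (1.15, SE 0.42, adjusted p = 0.0764). In the list of NK and cytotoxic genes 0 of 23 were called and 21 were positive, with a median of 0.50. Among them 7 lay above all MT samples, against 18.7% of all genes. With total-count scaling 3 were higher (median 1.02), with DESeq2 1 (median 0.56), and with TMM on liver-low genes 0 (median 0.16). T cell genes gave 0 higher and 1 lower (Icos, a costimulatory receptor, -1.34, adjusted p = 0.0163) of 25, with a median of -0.01. The call of Gzmc ended without MT3_1 (adjusted p = 0.0552). Without the sum of HT_1 and HT_3 the genes Gzmd, Gzme and Gzmf did not pass the filter, and DESeq2 gave no adjusted p for them.

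Proliferation genes had small positive changes, of which 1 passed the test. In all, 0 of 31 S phase genes and 1 of 33 G2 and M phase genes (3.03%, against 1.5% of all genes) were called higher. All 31 tested S phase genes and all 33 tested G2 and M phase genes had a positive log2 fold change (medians 0.70 and 0.84, beside 0.38 over all liver-low genes), and 22 and 29 of them had both HT samples above all MT samples, against 18.7% of all tested genes. Only Bub1b, a mitotic checkpoint kinase, was called, with 24.3, 50.6 and 82.5 CPM in MT and 104 and 93.1 CPM in HT (1.00, SE 0.27, adjusted p = 0.0305). Mki67, the proliferation antigen, had 84.9, 153 and 254 CPM in MT and 282 and 262 CPM in HT (0.76, SE 0.30, adjusted p = 0.0928). MT2_2, with the second lowest hepatocyte level, was nearest to HT in the G2 and M phase level (5.90, against 6.10 and 6.04). With total-count scaling 23 S phase and 33 G2 and M phase genes were higher, and with TMM on liver-low genes 0 and 0, with medians of 0.35 and 0.50. The call of Bub1b ended without MT3_1, MT2_1 or MT1_1 (adjusted p up to 0.0698). Beside these counts the hepatocyte level was 9.16 to 11.5 in MT and 6.49 and 6.97 in HT, and its part in them was not tested.

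**Figure D3:**
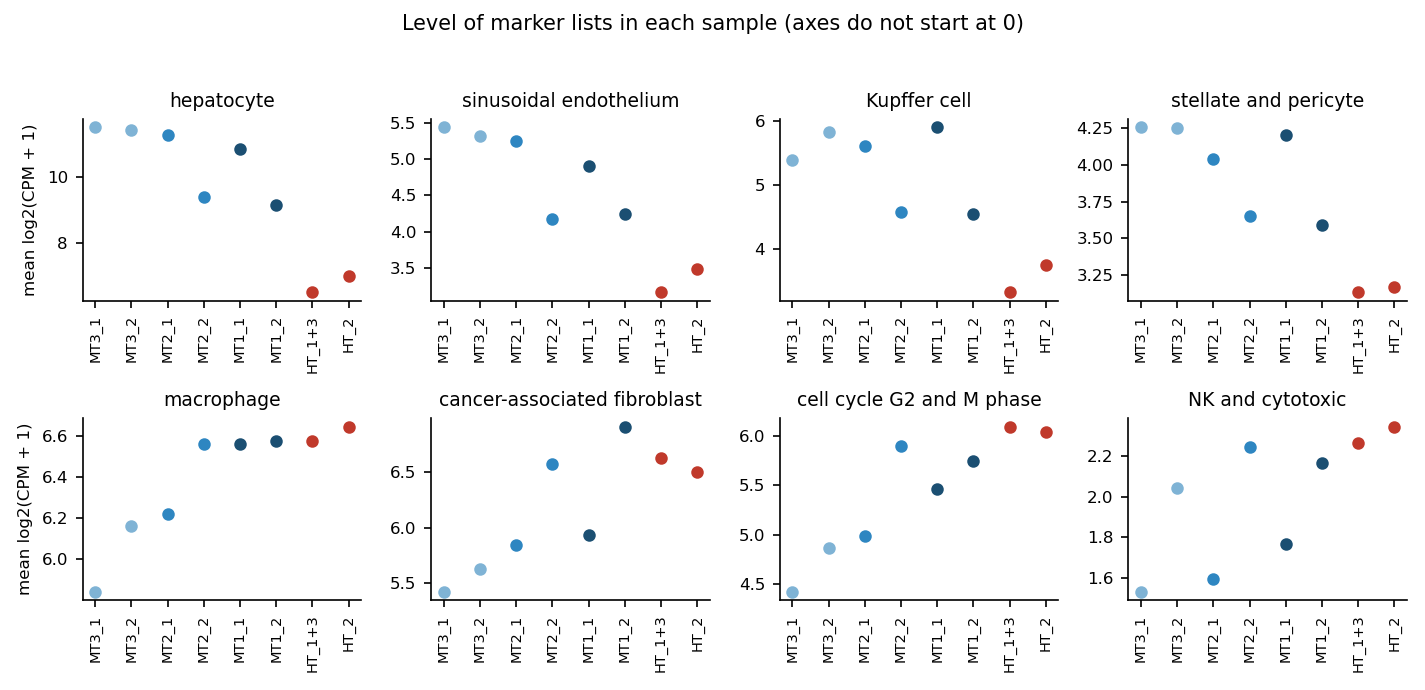
Level of 8 marker lists (mean log2(CPM + 1) over members; axes do not start at 0) in each MT sample and in the 2 HT samples, HT_1+3 being the sum of HT_1 and HT_3. Hepatocyte, sinusoidal endothelium, Kupffer cell and stellate levels are lowest in HT, and MT2_2 and MT1_2 lie nearer to HT than their partners; the G2 and M phase level is highest in HT (6.10 and 6.04).

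Further genes were among the largest higher changes. Nxpe5, at 50.02 CPM in F4/80+ and 59.8 CPM in CD11b+ cells, had 1.14, 2.98 and 6.50 CPM in MT and 10.6 and 9.44 CPM in HT (1.87, SE 0.34, adjusted p = 0.00936). Tent5b, a nucleotidyltransferase, had 5.39, 14.6 and 21.1 CPM in MT and 36.3 and 38.2 CPM in HT (1.65, SE 0.30, adjusted p = 0.00936). Both stood clear of the MT range. Itgbl1, an integrin beta-like secreted protein (1.52), Glt8d2, a glycosyltransferase family member (1.495), Sorcs2, a sorting receptor (1.44), and Gm1673 (1.42) had adjusted p of 0.0199, 0.0334, 0.0214 and 0.0268. Msln, mesothelin, which some carcinomas also make, had 21.2, 52.5 and 95.3 CPM in MT and 134.3 and 116.9 CPM in HT (1.39, SE 0.30, adjusted p = 0.0155). It was the only mesothelial marker called of 11 tested (9.09%, against 1.5% of all genes), 10 of them positive (median 0.84). With total-count scaling 6 were higher (median 1.35), and with TMM on liver-low genes 1 (median 0.50). Trp63, the p63 transcription factor of epithelia, had 0.435, 0.755 and 1.29 CPM in MT and 2.89 and 2.26 CPM in HT (1.78, SE 0.43, adjusted p = 0.0219). Per1, a repressor of the circadian clock, was higher (1.15, SE 0.16, adjusted p = 0.00861), while 5 of 19 clock genes were lower (26.3%, against 13.4% of all genes). Without MT3_1 the calls of Itgbl1, Glt8d2, Sorcs2, Gm1673 and Trp63 ended; Glt8d2 also ended without MT3_2 or MT1_1 and Gm1673 without MT1_1.

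In the interleukin 1 system, a set gathered after values were seen, 5 of 9 tested members were lower (55.6%, against 13.4% of all genes) and 0 higher. Of these, Il1b and Il1rn were more abundant in the sorted cells than in tumor-free liver, Il1a was similar in both, and Il1r1 and Il1rap were more abundant in liver. Il1b and Il1a are the inflammatory ligands, Il1rn the antagonist, and Il1r1 and Il1rap the receptor chains. Il1b had 2.49, 6.52 and 17.6 CPM in MT and 0.746 and 1.46 CPM in HT. The lowest and the highest MT values were the pair of MT1, and both HT samples lay below all (-2.79, SE 0.70, adjusted p = 0.0242). Il1a had 1.41, 2.78 and 4.57 CPM in MT and 0.373 and 0.487 CPM in HT, clear of the MT range (-2.69, SE 0.45, adjusted p = 0.00888), and was also lower against MT1 alone (-2.50, adjusted p = 0.043). Il1rn had 7.21, 10.7 and 27.0 CPM in MT and 4.31 and 4.74 CPM in HT (-1.45, SE 0.45, adjusted p = 0.0467). The windows before both ligand genes, on chromosome 2, are shown because they were lower together. Capitals mark TATAAA, and in Il1a also the AP-1 type motif TGANTCA, each searched on both strands.
Il1b, chr2:129371140-129371389, minus strand: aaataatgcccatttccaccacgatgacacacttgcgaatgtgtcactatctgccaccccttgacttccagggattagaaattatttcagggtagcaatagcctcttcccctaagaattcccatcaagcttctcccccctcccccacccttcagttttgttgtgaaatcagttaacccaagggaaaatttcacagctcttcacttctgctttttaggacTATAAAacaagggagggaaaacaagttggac
Il1a, chr2:129309973-129310222, minus strand: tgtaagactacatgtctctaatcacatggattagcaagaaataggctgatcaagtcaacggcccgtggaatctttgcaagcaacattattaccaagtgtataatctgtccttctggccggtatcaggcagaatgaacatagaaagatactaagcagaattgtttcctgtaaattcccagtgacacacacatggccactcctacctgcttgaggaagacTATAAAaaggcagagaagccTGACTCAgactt
TATAAA lay 31 to 26 bases before the start of Il1b and 32 to 27 before that of Il1a. The motif TGANTCA lay 12 to 6 bases before the start of Il1a and occurred in 6.73% of the 32536 windows, against 12.3% for TATAAA. In the sorted cells Il1b averaged 257 CPM (F4/80+) and 654 CPM (CD11b+). The receptor chains Il1r1 (-1.09, adjusted p = 0.0222) and Il1rap (-1.86, adjusted p = 0.0115) stood higher in C (139 and 236 CPM) than in the sorted cells (4.55 and 10.8 CPM in F4/80+).

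Cxcl1, a neutrophil-attracting chemokine that interleukin 1 is known to induce, had 5.09, 7.73 and 16.4 CPM in MT and 2.22 and 3.66 CPM in HT (-1.66, SE 0.46, adjusted p = 0.0337). Its relative Cxcl2 had 0.232, 0.343 and 8.17 CPM in MT and 0.131 and 0.244 CPM in HT, with overlap and no call (-2.24, SE 1.36, adjusted p = 0.241). Without MT3_1 the calls of Il1b and Cxcl1 ended (adjusted p = 0.0506 and 0.068), as did that of Il1rn without MT3_1 or MT3_2 (up to 0.0894) and that of Il1r1 without MT2_1. With total-count scaling Il1rn (-0.95), Il1r1 (-0.50) and Cxcl1 (-1.09, adjusted p = 0.0598) were not called.

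A minority of B cell genes was lower, at low levels. Of 22 tested B and plasma cell genes, 5 were lower (Ms4a1, Ighd, Fcrla, Blk and Fcer2a) and 0 higher, 22.7% against 13.4% of all genes, with a median of -1.34; with total-count scaling 3 were lower and 1 higher (median -0.86). Ighd, the heavy chain of immunoglobulin D of naive B cells, had 0.994, 2.40 and 3.76 CPM in MT and 0.578 and 0.279 CPM in HT (-2.44, SE 0.52, adjusted p = 0.0145). Ms4a1, which encodes CD20, had 0.683, 1.87 and 2.22 CPM in MT and 0.336 and 0.418 CPM in HT (-2.12, SE 0.58, adjusted p = 0.0321). Blk, a B cell tyrosine kinase, had 0.404, 0.869 and 1.32 CPM in MT and 0.093 and 0.174 CPM in HT, 5 counts in each HT sample (-2.56, SE 0.49, adjusted p = 0.0103). HT lay below MT in all 3. Cd79a, a signaling chain of the B cell receptor, was not called (-0.69, adjusted p = 0.119). The call of Ms4a1 ended without MT3_1 or MT3_2 (adjusted p up to 0.06).

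Of 18 tested neutrophil genes, 3 were lower (Retnlg, Hdc and G0s2) and 0 higher, a share of 16.7% near the 13.4% of all genes, with a median of -0.67. Hdc, the histamine-forming enzyme of granulocytes and mast cells, had 4.48, 7.60 and 9.84 CPM in MT and 2.37 and 1.98 CPM in HT, clear of MT (-1.77, SE 0.38, adjusted p = 0.0146). Retnlg, a resistin-like protein of neutrophils, had 0.646, 1.16 and 1.68 CPM in MT and 0.336 and 0.279 CPM in HT (-1.77, SE 0.36, adjusted p = 0.0125). Both were more abundant in CD11b+ (99.3 and 89.3 CPM) than in F4/80+ cells (7.05 and 6.92 CPM). G0s2, an inhibitor of fat breakdown, stood at 58.4 CPM in C. S100a8, the abundant neutrophil alarmin, did not reach the fold threshold and overlapped (-0.86, SE 0.26, adjusted p = 0.0447). Prtn3, the granule protease proteinase 3, had 7.50, 13.1 and 24.3 CPM in MT and 1.45 and 1.32 CPM in HT (-3.33, SE 0.46, adjusted p = 0.00861) and stood at 0.428 CPM in C, yet the other azurophil granule genes Mpo (-0.82, adjusted p = 0.487) and Elane (-1.60, adjusted p = 0.177) were not called.

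**Figure D4:**
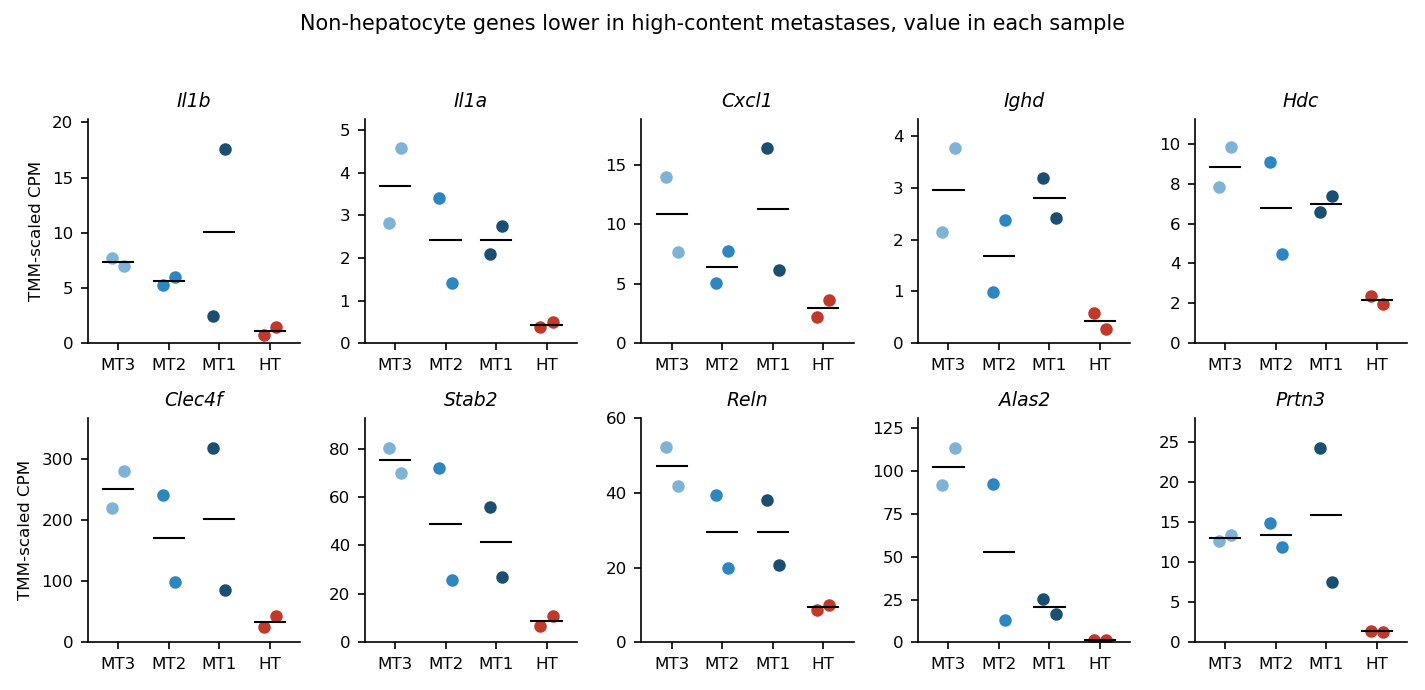
TMM-scaled CPM of 10 genes lower in HT, 1 point per sample and a line at each group's mean, in MT3, MT2, MT1 and HT (n = 2 each; axes start at 0). The HT points lie below all MT points in every panel, and MT samples spread widely for Il1b (2.49 to 17.6 CPM) and Alas2 (12.9 to 113 CPM).

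Under both definitions of non-hepatocyte genes, C and FC below LT and C and FC below the sorted cells, 20 of 5823 tested genes were lower (0.343%) and 192 higher (3.3%). The lower genes were Il1b, Il1a, Il1rn, Cxcl1, Ppbp, Ighd, Ms4a1, Fcrla, Spib, Hdc, Retnlg, Ear2, Alox15, Gbp2b, Apol7c, Klk1, Mks1, AW112010, Gm10382 and 5830444B04Rik, with a median log2 fold change of -1.89. Gbp2b, an interferon-induced guanylate-binding protein, had 2.91, 7.93 and 24.4 CPM in MT and 1.08 and 2.09 CPM in HT (-2.34, SE 0.61, adjusted p = 0.0282). AW112010, a long RNA of activated immune cells, had 46.7, 67.3 and 120 CPM in MT and 24.4 and 35.1 CPM in HT (-1.24, SE 0.23, adjusted p = 0.00981). Of 11 tested Gbp genes, a family gathered after values were seen, 3 were lower (27.3%, against 13.4% of all genes) and 0 higher: Gbp2b, Gbp10 (-2.17, adjusted p = 0.0286) and Gbp11 (-3.24, adjusted p = 0.00981), all without overlap. Gbp10 and Gbp11 were more abundant in C (11.1 and 1.87 CPM) than in F4/80+ cells (0.821 and 0.582 CPM), and Gbp10 lost its call without MT3_1, MT3_2 or MT1_1 (adjusted p up to 0.0532). In the list of interferon-stimulated genes 0 of 40 tested were higher and 1 was lower (Iigp1, -1.92, adjusted p = 0.00981), with a median of 0.26. With TMM on liver-low genes the counts were 0 and 1 (median -0.11), and with total-count scaling 9 and 1 (median 0.78). Most of the 20 had MT medians under 10 CPM, and the calls of Ppbp, Ear2, Alox15, Klk1, Mks1, Spib and 5830444B04Rik also ended without 1 or more single MT samples.

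Markers of cells native to the liver sinusoid were lower for most Kupffer cell and endothelial genes and for part of the stellate cell genes. Of 14 tested Kupffer cell markers 10 were lower (71.4%, against 13.4% of all genes) and 0 higher, with a median of -2.17. Clec4f, the lectin that defines mouse Kupffer cells, had 84.9, 230 and 319 CPM in MT and 24.8 and 43.4 CPM in HT (-2.59, SE 0.57, adjusted p = 0.0161). Timd4, a phosphatidylserine receptor of embryo-derived Kupffer cells, had 6.58, 17.6 and 20.7 CPM in MT and 1.62 and 4.25 CPM in HT (-2.33, SE 0.59, adjusted p = 0.0248), and Cd5l, a secreted macrophage protein, had 115, 252 and 384 CPM in MT and 30.6 and 49.4 CPM in HT (-2.55, SE 0.52, adjusted p = 0.0126). HT lay below every MT sample in all 3. The call of Timd4 ended with only MT and HT in the fit (adjusted p = 0.0538). Its log2 fold change was -1.77 without the sum of HT_1 and HT_3 and -3.15 without HT_2. Clec4f and Cd5l were more abundant in F4/80+ (543 and 484 CPM) than in CD11b+ cells (24.1 and 30.6 CPM). The Kupffer cell level was 4.56 to 5.90 in MT and 3.33 and 3.76 in HT, and that of the macrophage list 5.84 to 6.58 in MT and 6.58 and 6.65 in HT. Marco, a scavenger receptor, lost its call (-2.78, adjusted p = 0.0407) without MT3_2, MT2_1 or MT1_1 (up to 0.0673).

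Of 15 tested markers of sinusoidal endothelium, 11 were lower and 1 higher (73.3% and 6.67%, against 13.4% and 1.5% of all genes), with a median of -2.18. The higher one was Stab1, which macrophages share. Stab2, the hyaluronan receptor of the sinusoid, had 25.7, 63.0 and 80.4 CPM in MT and 6.75 and 11.0 CPM in HT (-2.59, SE 0.46, adjusted p = 0.00912), opposite to its relative Stab1. Clec4g, a sinusoidal lectin, had 15.2, 51.6 and 95.2 CPM in MT and 2.03 and 3.90 CPM in HT (-3.93, SE 0.68, adjusted p = 0.00907). Neither overlapped. Of 19 stellate cell and pericyte markers, 9 were lower (47.4%, against 13.4% of all genes) and 0 higher, with a median of -0.80; with total-count scaling 4 were lower and 1 higher (median -0.21). Reln (reelin), made by stellate cells, had 19.8, 38.9 and 52.4 CPM in MT and 8.74 and 10.1 CPM in HT (-1.88, SE 0.31, adjusted p = 0.00896), and Lrat, the retinol-storing enzyme, gave -1.45 (SE 0.39, adjusted p = 0.0305). Pdgfrb (0.66, adjusted p = 0.0598) and Des (-0.20, adjusted p = 0.539), which pericytes and fibroblasts share, were not called. Cxcl12, a chemokine of stromal cells that retains leukocytes, had 73.5, 170 and 288 CPM in MT and 26.6 and 24.5 CPM in HT (-2.63, SE 0.41, adjusted p = 0.00861) and stood at 377 CPM in C. The call of Lrat ended without MT3_1 or MT3_2 and with total-count scaling (-0.85).

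Erythroid genes were lower as well, with 5 of 10 tested called (50%, against 13.4% of all genes) and 0 higher (median -1.97). Alas2, the first enzyme of heme synthesis in red cell precursors, had 12.9, 58.4 and 113 CPM in MT and 1.64 and 1.29 CPM in HT (-5.02, SE 0.76, adjusted p = 0.00861). Hbb-bs, a beta globin chain, had 41.8, 69.9 and 151 CPM in MT and 20.0 and 12.3 CPM in HT (-2.24, SE 0.36, adjusted p = 0.00861), and Hba-a1, an alpha chain, changed alike (-2.24, SE 0.36). No pair of groups overlapped in these 3. Globin genes have near-identical copies, so single values are uncertain.

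Most of the 146 lower liver-low genes were more abundant in liver than in the sorted cells (102). The largest changes among them included products of hepatocytes, and also the sinusoidal lectin Clec4g and the granule protease Prtn3 described above. Saa2, an acute phase apolipoprotein, had 31.7, 115 and 380 CPM in MT and 2.54 and 1.25 CPM in HT (-6.16, SE 0.76, adjusted p = 0.00861). Fgb (fibrinogen beta chain), Fgl1, Apcs, A2ml1, Wfdc21, Cldn14 and Serpina4-ps1 followed, with Mup13 and Mup-ps19, Gm15611, Gm8883 and Gm27216. In the acute phase list 22 of 24 tested genes were lower and in that of liver metabolism 43 of 45 (91.7% and 95.6%, against 13.4% of all genes). The 4 largest changes among the other lower genes were Mup12, Gm31583, Mup17 and Hsd3b5. Mup genes are near-identical copies whose reads the counting could split, and Mup12, Mup13 and Mup17 had 0 to 68 counts in an HT sample, so no fitted changes are given for them. Mup13 lost its call without MT3_1 or MT1_1, and Mup17 without MT3_1, MT3_2 or MT2_1.

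The comparison with each MT group in turn, which shares the HT samples, gave the most higher calls against MT3. HT against MT3 had 1718 higher (10%) and 3263 lower genes (19%), against MT2 7 (0.0407%) and 1171 (6.81%), and against MT1 1 (0.00582%) and 616 (3.58%). At an unadjusted p under 0.05, 3907, 655 and 288 genes were higher. The 7 against MT2 were Stab1, Per1, F13a1, Dact3, Cbr2, Rnf150 and Ypel1. The 257 higher genes had a median log2 fold change of 1.91 against MT3, 0.85 against MT2 and 0.73 against MT1. For Cbr2 the 3 values were 4.17, 2.53 and 2.00 (adjusted p = 0.00368, 0.0253 and 0.0704), and for Ogn 2.97, 1.56 and 1.51 (0.00575, 0.127 and 0.176). With only MT2 and MT1 of day 11 against HT of day 12, 8 genes were higher and 1271 lower. The lower genes against MT1 ended to 0 without MT3_1, MT3_2, MT1_1 or either HT sample (unadjusted 1427 to 2480 lower without an MT sample). The difference between the MT groups in their change to HT was not tested.

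Of all genes 1.5% were higher and 13.4% lower, and the following lists stood beside them. MHC class II genes, which present antigen, gave 0 calls of 15, with 9 below all MT samples, where 22.6% of all genes lay, and a median of -0.75 (2 lower with TMM on liver-low genes and 1 with DESeq2). Hypoxia and glycolysis genes gave 0 higher and 1 lower (Bnip3) of 34 (median 0.09), dendritic cell genes 0 and 1 of 18 (median -0.12), monocyte genes 0 and 3 of 14 (median -0.29), inflammatory cytokines 0 and 3 of 26 (median 0.04), and immune checkpoint genes 0 and 1 of 22 (median 0.08). In the same order, total-count scaling gave 7 higher and 1 lower, 3 and 1, 3 and 1, 4 and 2, and 2 and 0. TMM on liver-low genes gave 0 and 4, 0 and 1, 0 and 3, 0 and 4, and 0 and 3. Mitochondrially encoded genes were lower in 10 of 15 (3 with total-count scaling) and cholesterol synthesis genes in 13 of 24 (medians -1.41 and -1.75). A median near 0 in these lists does not show equal levels, since with TMM on liver-low genes it would be about 0.37 lower and with total-count scaling about 0.55 higher.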

How the data were processed

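RNA was extracted with TRIzol, libraries were made with a NEBNext Ultra kit, and expression was measured by RNA-Sequencing. Per the submitters' processing notes the tools were CASAVA, HISAT2 2.0.5 and featureCounts 1.5.0-p3, with the builds GRCm38 and mm10. The authors deposited raw counts per gene (54532 genes) without normalization, replicates unpooled, with tissue and sorted cells in separate tables; per-sample columns without a sample numbered 0. Groups came from the labels.

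In R 4.3.3 with edgeR 4.0.16 (limma 3.58.1), 13 samples in 7 groups were fitted after TMM scaling and filterByExpr, HT_1 and HT_3 summed. HT was tested against the mean of MT3, MT2 and MT1 by edgeR's quasi-likelihood F test, two-sided, and p-values were adjusted by Benjamini-Hochberg; SE was derived from F. CPM values are TMM-scaled, list levels use a pseudocount of 1, and the floor is 3 counts. DESeq2 1.42.0, other scalings, filters, groupings and left-out samples were alternatives. In simulated counts for 16240 genes, 100 genes differed by log2 2 and 100 by log2 3 between MT and HT. Of these, 88% and 97% were recovered, with 7 false calls. Recovery with as many genes shifted as were called here (257 higher and 2306 lower) was not tested.

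The members and lists were chosen with earlier results of these data known. Named genes were, among calls without overlap and with mean log2 CPM of at least 1, the 15 higher, 15 lower liver-low and 4 other lower genes with the largest changes, plus list members and genes chosen after their values were seen. Tissue and sorted-cell tables were normalized separately. A replicate number did not pair samples. Of 34 named genes and 52 lists, sample outliers in MT were sought by Dixon's ratio.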

Additional observations from a re-analysis of the deposited data

Results flagged for a closer look

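In the 6 MT samples, 2 of 86 levels tested (34 genes and 52 lists) had 1 sample apart from the others by Dixon's ratio; chance marks about 1 in 20. The MHC class II level, which was 4.50 to 4.59 in 5 MT samples, was 5.10 in MT3_2 (ratio 0.853). The level of lipid-associated macrophage genes was lowest in MT2_2, at 6.80 against 6.90 to 6.95 in the other 5 (ratio 0.672). In HT the 2 levels were 4.10 and 4.34 for MHC class II and 6.31 and 6.35 for lipid-associated macrophage genes.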

How the results depend on the processing

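The higher and lower counts of HT against MT (257 and 2306) were 450 and 2503 with DESeq2, 642 and 2478 with no filter, 142 and 1853 with at least 10 counts in every library, 1049 and 2839 with no fold threshold, 246 and 1846 with only MT and HT in the fit, 30 and 1908 with MT as 1 group, 8 and 1271 with day 11 only, 461 and 2650 with HT as 3 libraries, 223 and 2253 with HT_3 not used, 2587 and 1773 with total-count scaling, and 33 and 2916 with TMM on liver-low genes. Alternatives chosen after seeing the data gave 1718 and 3263 against only MT3, and 7 and 1171 against only MT2. Of the 257 higher genes, 244 were kept by DESeq2 and 33 by TMM on liver-low genes. Liver-low lower genes (146) numbered 78 with at least 10 counts, 72 with day 11 only, 227 with TMM on liver-low genes, 245 and 60 against MT3 and MT2 (chosen after seeing the data), 53 when defined against the sorted cells, and 20 by both definitions (chosen after seeing the data). Higher and lower genes against MT1 (1 and 616) numbered 7 and 1630 with DESeq2, 47 and 1953 with no filter, 2 with no fold threshold (higher), 0 and 0 with only MT and HT in the fit (smallest adjusted p 0.128; unadjusted 256 and 2290), 9 and 1478 with HT as 3 libraries, 7 and 992 with total-count scaling, and 0 and 0 with TMM on liver-low genes (0.0749; unadjusted 80 and 2674). Leaving out 1 sample gave 0 to 810 higher, 0 to 2739 lower and 0 to 187 liver-low lower genes, and 0 to 5 and 0 to 1524 against MT1.

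A replicate block gave 438 higher and 2397 lower genes, and 3 and 964 against MT1. Same-numbered samples did not all deviate together (r = 0.37, 0.24 and 0.72 among MT groups, -0.23, -0.36 and -0.32 with HT), so the numbers do not pair samples. With the HT numbers exchanged in the block (chosen after seeing the data) the counts were 463 and 2456, and 9 and 1333 against MT1.

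For 159 described genes 0 calls reversed under any alternative run. Apart from leaving out 1 sample in turn, 1888 of their values stayed on the same side of the threshold and 428 did not; with a sample left out, 752 and 517. Levels under 3 counts, 0.164 to 0.181 CPM in the HT libraries without TMM, could not be read.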
